A study of Mus musculus with 8 samples.

Results

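Prostaglandin E2 (PGE2) is a lipid mediator made in a few enzymatic steps, and the mRNAs of 10 genes of its synthesis, inactivation and reception were followed in cultured articular chondrocytes of the mouse, with and without IL-1β. The members were the rows of the count table whose gene name was Pla2g4a, Ptgs1, Ptgs2, Ptges, Ptgis, Hpgd, Ptger1, Ptger2, Ptger3 or Ptger4. All 10 were found among 54658 rows, and 8 of the 10 were abundant enough to be tested, among 14404 genes tested in all. The primary cells were released by digestion from the femoral heads of wild-type mice aged 3 weeks and seeded in culture. They were given either vehicle or IL-1β at 1 ng/mL for 24 h, with 4 RNA-Seq samples per group. No transgene or deletion was carried by either group, and whether the samples of a group came from separate mice or cultures is not given in the sources used here, so p-values measure only the spread between these samples, which may be technical.

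In this pathway, cytosolic phospholipase A2 releases arachidonic acid from membranes, the cyclooxygenases turn it into prostaglandin H2, and terminal synthases turn that into PGE2, prostacyclin or other prostanoids. PGE2 leaves the cell, acts on the receptors EP1 to EP4, and is inactivated after uptake by 15-hydroxyprostaglandin dehydrogenase. EP2 and EP4 couple to Gs and raise cyclic AMP, EP1 acts through calcium, and EP3 couples mainly to Gi. In cartilage, PGE2 is known as a mediator of joint inflammation and pain that can also alter matrix synthesis by chondrocytes, and IL-1β is a standard stimulus for its production. The RNA-Seq experiment asked how the chondrocyte transcriptome responds to IL-1β, and the comparison below is its PGE2 branch.

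Total counts were 10992355 to 17104351 with IL-1β and 13970959 to 17456063 with vehicle. Levels are CPM, counts relative to the library total scaled by edgeR's TMM factors (mean ± SD, n = 4), and 3 counts, the smallest abundance taken as shown, equal 0.172 to 0.273 CPM before TMM scaling, a floor that covers counting error only. "Rose" and "fell" mean a Benjamini-Hochberg adjusted p under 0.05 in edgeR's quasi-likelihood test over all genes tested, and a differentially expressed gene (DEG) in addition had a log2 fold change beyond 1 or -1. Of the labelled cell type's 12 markers, all were detected, 11 were lower with IL-1β and Prg4, the lubricin gene of the superficial zone, was higher, so that their summed level was 5734 to 6228 CPM with IL-1β and 15828 to 16379 CPM with vehicle. The 8 macrophage and leukocyte markers summed to 30.4 to 33.9 CPM against 14.8 to 17.6 CPM, with Cd14 and Cd68 higher and Lyz2 lower. The others were below the filter, with Ptprc, Adgre1 and Itgam at 0 to 6 counts per sample, Csf1r at 7 to 19 and Mrc1 at 0 to 12. The 6 fibroblast and synovial lining markers summed to 44.7 to 48.5 CPM against 15.6 to 18.5 CPM, with Pdpn and Cd34 higher and the other 4 below the filter. The 6 osteoblast markers summed to 2378 to 2515 CPM against 1412 to 1526 CPM, with Spp1 higher and 4 genes lower. None of the 6 endothelial (0.865 to 1.71 CPM in sum over both groups) or 4 mast cell markers (0.0709 to 0.404 CPM) was tested. In bulk samples, fewer cells of a type and less RNA per cell cannot be told apart, and the part of these marker levels in the changes below was not tested.

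Of the 8 genes tested, Ptges, Ptgs1, Ptger4 and Pla2g4a rose, Hpgd and Ptgis fell, and Ptgs2 and Ptger2 were not called. The 4 that rose stand beside 20.4% of all genes tested that rose, and the 2 that fell beside 19.8% that fell. Under the DEG rule, 3 were higher (Ptges, Ptgs1, Ptger4), where 2.86% of all genes were, and 1 was lower (Hpgd), where 2.35% were. All 4 IL-1β samples lay above all 4 vehicle samples for 4 members (18.7% of all genes) and below them for 2 members (18.2% of all genes). The members' median log2 fold change was 0.23, and that of all genes tested was -0.0012. Because the members were picked with results of these samples known, these shares describe the genes and are no test of the pathway.

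**Figure D1:**
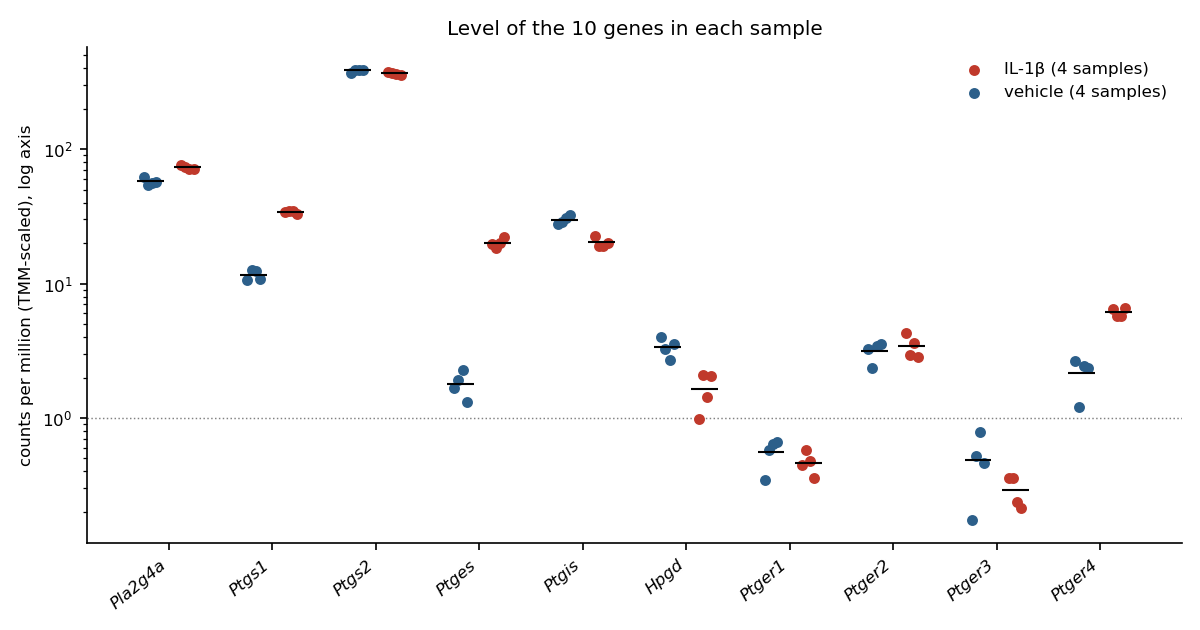
Level of each of the 10 genes in each sample, as TMM-scaled CPM on a log axis, with blue points for the 4 vehicle samples, red points for the 4 IL-1β samples, black bars for the group means and a dotted line at 1 CPM. Ptges goes from 1.79 to 20.1 CPM on average, Ptgs2 lies near the top in both groups, and Ptger1 and Ptger3 lie below the line in every sample.

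The first step, release of arachidonic acid, is run by the product of Pla2g4a, cytosolic phospholipase A2α. Its level was 76.8, 74.2, 71.5 and 71.8 CPM in IL-1β replicates 1 to 4 and 62.2, 54.2, 56.3 and 57.4 CPM in vehicle replicates 1 to 4. All IL-1β samples lay above all vehicle samples, by a small margin. Pla2g4a rose 1.28-fold (95% confidence interval 1.20 to 1.36; log2 fold change 0.35, SE 0.0437, adjusted p = 1.31e-07). The gene lies on the minus strand of chromosome 1 at 149829618-149961290 (GRCm38), so that its start is the higher position. Its nearest member, Ptgs2, is on the plus strand and begins 138741 bases upstream of that start.

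The next step is shared by the 2 cyclooxygenases, and the 2 genes differed in their response. Ptgs1 encodes COX-1, usually described as the constitutive form, and Ptgs2 encodes COX-2, usually described as the form induced by cytokines. Ptgs1 was at 34.0, 34.8, 34.4 and 32.8 CPM with IL-1β and at 10.7, 12.5, 12.3 and 10.8 CPM with vehicle. The groups were far apart relative to their spread. Ptgs1 rose 2.94-fold (2.68 to 3.23; log2 fold change 1.56, SE 0.0656, adjusted p = 9.28e-18), the 196th largest log2 fold change of the 14404. It lies on the plus strand of chromosome 2 at 36230426-36252272.

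Ptgs2 was at 378, 368, 363 and 359 CPM with IL-1β and at 372, 387, 391 and 391 CPM with vehicle. These levels rest on 4194 to 6691 counts per sample, the deepest coverage of any member. The group ranges overlapped, since IL-1β replicate 1 exceeded vehicle replicate 1. The log2 fold change was -0.07 (95% confidence interval -0.13 to -0.01, SE 0.0314, adjusted p = 0.0792 in edgeR), a difference of -4.72%. Without IL-1β replicate 1 the adjusted p was 0.0341, and without vehicle replicate 1 it was 0.0367, both with a lower mean in IL-1β. The interval, which is not adjusted for the number of genes tested, lay below 0 throughout. Times other than 24 h were not analysed here. Ptgs2 lies on the plus strand of chromosome 1 at 150100031-150108227, and no exon of another gene overlaps its exons.

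Per kilobase of exons, the scale on which levels of different genes can be compared, Ptgs2 stood at 80.1 ± 1.76 with IL-1β and 84.1 ± 2.03 with vehicle. Among all genes tested this placed it 450th and 420th, within the top 3.12% and 2.92%, so that its mRNA was abundant without IL-1β too. Ptgs1 stood at 8.76 ± 0.220 and 2.98 ± 0.256. The share of Ptgs1 in the per-kilobase sum of both genes was 9.58%, 10.0%, 10.0% and 9.73% with IL-1β and 3.28%, 3.68%, 3.59% and 3.14% with vehicle. The sum itself was 88.9 ± 1.86 with IL-1β and 87.1 ± 2.16 with vehicle, ranges that overlapped.

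The bases just upstream of the start are shown for the 2 cyclooxygenase genes because these neighbours in the pathway responded differently, with motif matches in capitals and the start following the last base. The windows are the 250 bases upstream of a RefSeq start (GRCm38.p6), plus strand for both genes, at chr2:36230176-36230425 for Ptgs1 and chr1:150099781-150100030 for Ptgs2.
Ptgs1: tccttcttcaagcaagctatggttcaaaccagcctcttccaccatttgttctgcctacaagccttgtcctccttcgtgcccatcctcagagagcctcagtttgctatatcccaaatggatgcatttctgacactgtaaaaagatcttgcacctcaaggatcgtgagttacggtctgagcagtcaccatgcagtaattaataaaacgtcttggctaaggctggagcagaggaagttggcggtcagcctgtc
Ptgs2: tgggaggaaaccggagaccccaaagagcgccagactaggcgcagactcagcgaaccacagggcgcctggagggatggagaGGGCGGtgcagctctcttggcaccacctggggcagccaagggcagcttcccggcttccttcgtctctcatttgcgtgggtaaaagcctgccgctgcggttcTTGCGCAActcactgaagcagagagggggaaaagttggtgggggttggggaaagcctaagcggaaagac
The letters searched on both strands were the C/EBP motif TTGCNNAA, the cAMP response element TGACGTCA and its core TGACG, the AP-1 motif TGANTCA, the GC box GGGCGG, the TATA box TATAAA and the κB consensus. The core is contained in the full cAMP response element. The Ptgs1 window held none of them. The Ptgs2 window held a C/EBP match that reads the same on both strands, from 69 to 62 bases upstream, and a GC box from 170 to 165 bases upstream. Among 32851 RefSeq promoter windows of the same length, 9.56% held the C/EBP motif, 32.7% the GC box, 7.25% the κB consensus, 6.75% the AP-1 motif, 1.55% the full cAMP response element, 17.8% its core and 12.4% the TATA box. A match is a description of letters, and an absent match says only that these letters are not in this window.

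**Figure D2:**
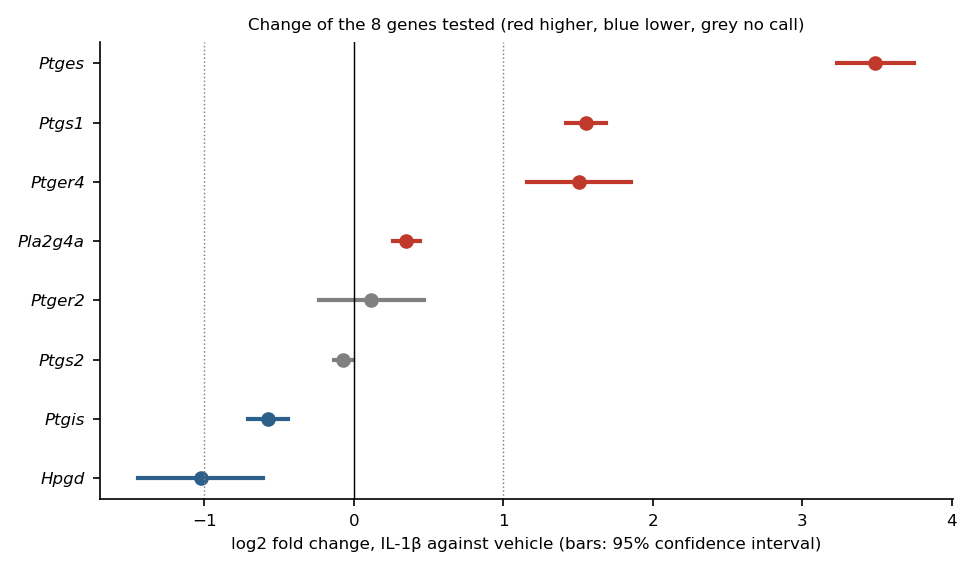
Log2 fold change of IL-1β against vehicle for the 8 genes tested (points) with 95% confidence intervals (bars), red for genes that rose, blue for genes that fell and grey for genes not called, and dotted lines at -1 and 1. Ptges stands apart at 3.49, Ptgs1 and Ptger4 lie near 1.5, and Hpgd lies at -1.02 with an interval that spans -1.

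The terminal synthases among the members, Ptges and Ptgis, moved in opposite directions. Ptges encodes microsomal PGE synthase-1, the inducible enzyme that turns prostaglandin H2 into PGE2. It was at 19.7, 18.4, 20.0 and 22.3 CPM with IL-1β (219 to 337 counts) and at 1.67, 1.91, 2.28 and 1.31 CPM with vehicle (20 to 33 counts). Every IL-1β sample was several times the highest vehicle sample. Ptges rose 11.2-fold (9.39 to 13.4; log2 fold change 3.49, SE 0.126, adjusted p = 2.18e-19), the 41st largest log2 fold change of all genes tested. Per kilobase it went from rank 13275 with vehicle to rank 6676 with IL-1β.

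Ptgis encodes prostacyclin synthase, which uses the same substrate. It was at 22.7, 19.1, 19.1 and 19.9 CPM with IL-1β and at 27.7, 28.9, 30.7 and 32.5 CPM with vehicle, without overlap. Ptgis was 1.49-fold lower with IL-1β (1.36 to 1.63; log2 fold change -0.57, SE 0.0651, adjusted p = 2.51e-08). The gene lies on the minus strand of chromosome 2 at 167191805-167240604.

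The Ptges window is shown because this gene had the largest change of the members. It is chr2:30903298-30903547 on the minus strand, upstream of a RefSeq start that lies inside the GENCODE gene (30889471-30929863).
Ptges: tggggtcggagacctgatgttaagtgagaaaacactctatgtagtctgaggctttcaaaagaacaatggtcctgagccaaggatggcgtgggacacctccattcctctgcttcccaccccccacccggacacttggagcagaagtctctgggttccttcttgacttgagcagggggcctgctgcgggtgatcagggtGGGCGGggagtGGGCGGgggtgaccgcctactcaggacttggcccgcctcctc
It held 2 GC boxes, from 53 to 48 and from 42 to 37 bases upstream, and none of the other motifs. The nearest annotated genes without overlap were Prrx2 at 8220 bases and Tor1b at 23096 bases. Prrx2, a homeobox gene, was at 4.41 ± 0.527 CPM in treated and 9.28 ± 0.293 CPM in vehicle samples and fell (log2 fold change -1.07, SE 0.113, adjusted p = 6.55e-09). Tor1b, at 54.4 ± 4.38 and 55.7 ± 2.53 CPM, was not called (adjusted p = 0.708).

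Hpgd, on the plus strand of chromosome 8 at 56294585-56321043, encodes 15-hydroxyprostaglandin dehydrogenase, which starts the inactivation of PGE2. Its counts were 11, 29, 24 and 29 with IL-1β and 69, 56, 38 and 54 with vehicle, or 0.991, 2.09, 1.43 and 2.06 CPM against 3.98, 3.24, 2.71 and 3.55 CPM. The groups did not overlap, but the gene was scarce and its spread among the IL-1β samples was wide. Hpgd was 2.03-fold lower with IL-1β (1.52 to 2.72; log2 fold change -1.02, SE 0.203, adjusted p = 0.000149). It fell with each sample left out in turn, while its log2 fold change then ranged from -1.15 to -0.88, so that its DEG status was lost without IL-1β replicate 1, IL-1β replicate 3 or vehicle replicate 1.

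Among the 4 PGE2 receptors, Ptger4 was called. Ptger4 encodes EP4 and was at 6.49, 5.77, 5.70 and 6.60 CPM with IL-1β and at 2.65, 1.21, 2.42 and 2.37 CPM with vehicle. All IL-1β samples lay above all vehicle samples, among which replicate 2 was the lowest. Ptger4 rose 2.84-fold (2.23 to 3.61; log2 fold change 1.51, SE 0.169, adjusted p = 2.06e-08), and its log2 fold change without vehicle replicate 2 was 1.29. The gene lies on the minus strand of chromosome 15 at 5206661-5244187. Exons of other genes on the opposite strand cover 16.5% of its exon bases, and whether the counting used strand is not given in the sources used here.

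Ptger2, on the plus strand of chromosome 14 at 44988195-45003820, encodes EP2, the other receptor that couples to Gs. It was at 4.32, 2.96, 3.62 and 2.84 CPM with IL-1β and at 3.29, 2.37, 3.42 and 3.55 CPM with vehicle, and the groups overlapped. The log2 fold change was 0.12 (95% confidence interval -0.23 to 0.47, SE 0.171, adjusted p = 0.636), so that a change of up to 1.38-fold upward could not be told from none at this depth. Its sign turned (-0.0041) without vehicle replicate 2.

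Ptger1 and Ptger3, which encode EP1 and EP3, did not pass the filter of more than 1 CPM in at least 4 samples. Ptger1 had 5, 8, 8 and 5 counts with IL-1β and 6, 10, 9 and 10 with vehicle, and even these counts are uncertain, since its exons are not free of overlap with other annotation. Ptger3 had 4, 5, 4 and 3 counts with IL-1β and 3, 9, 11 and 7 with vehicle. In a fit of 32379 genes without that filter, the log2 fold change was -0.24 for Ptger1 (adjusted p = 0.770) and -0.71 for Ptger3 (adjusted p = 0.416). No difference was detectable at these counts.

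The Ptger4 window is shown as that of the receptor gene that rose, at chr15:5244188-5244437 on the minus strand.
Ptger4: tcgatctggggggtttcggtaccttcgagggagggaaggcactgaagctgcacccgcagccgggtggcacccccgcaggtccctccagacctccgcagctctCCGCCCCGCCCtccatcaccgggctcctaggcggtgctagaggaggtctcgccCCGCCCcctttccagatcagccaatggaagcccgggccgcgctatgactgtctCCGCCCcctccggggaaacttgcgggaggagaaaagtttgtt
It held 4 GC boxes, all as CCGCCC on the strand shown, of which the first pair share a base, and none of the other motifs. Its GC content was 66.8%, against 59.6% for Ptges, 61.6% for Ptgs2, 48.0% for Ptgs1 and a median of 52.4% over all windows. RefSeq windows were at hand for 8 of the 10 members, other than Ptgis and Ptger1.

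**Figure D3:**
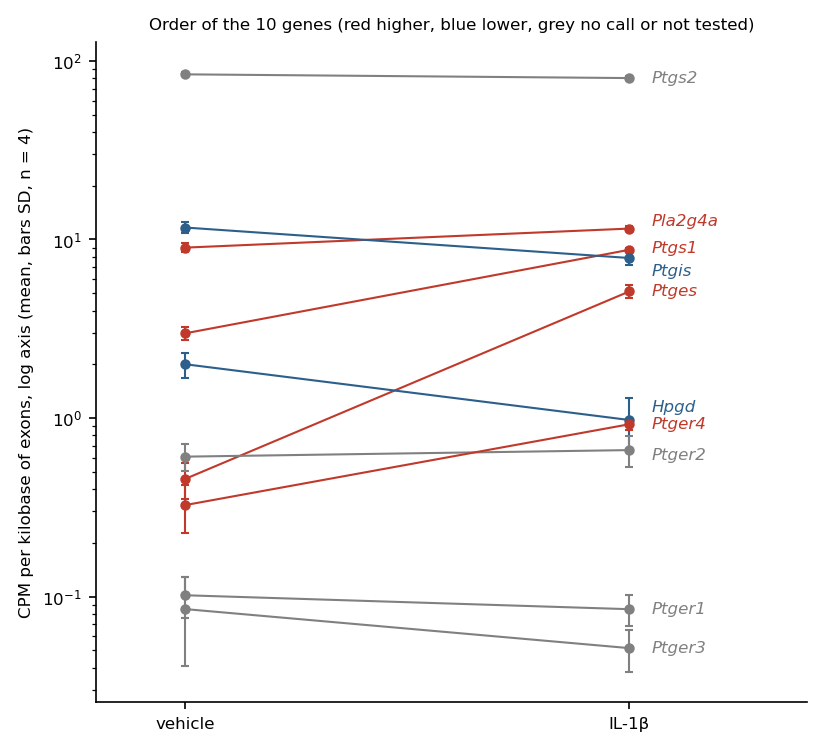
Mean CPM per kilobase of exons (bars, SD, n = 4) of the 10 genes with vehicle (left) and IL-1β (right) on a log axis, with red lines for genes that rose, blue for genes that fell and grey for genes not called or not tested. Ptgs2 is at the top in both groups at 84.1 and 80.1, and the Ptges line goes from 0.456 to 5.12, crossing those of Hpgd and Ptger2.

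On the per-kilobase scale, the order with vehicle was Ptgs2 (84.1), Ptgis (11.7), Pla2g4a (9.00), Ptgs1 (2.98), Hpgd (2.00), Ptger2 (0.608), Ptges (0.456), Ptger4 (0.326), Ptger1 (0.102) and Ptger3 (0.0852). The sample ranges of Ptger2 and Ptges overlapped, as did those of Ptges and Ptger4 and those of Ptger1 and Ptger3. With IL-1β the order was Ptgs2 (80.1), Pla2g4a (11.5), Ptgs1 (8.76), Ptgis (7.88), Ptges (5.12), Hpgd (0.975), Ptger4 (0.923), Ptger2 (0.662), Ptger1 (0.0851) and Ptger3 (0.0515). Here the ranges of Ptgs1 and Ptgis overlapped, as did those of Hpgd and Ptger4. Ptgs2 exceeded the next gene 6.96-fold with IL-1β and 7.21-fold with vehicle. Among the PGE2 receptors, Ptger2 was the most abundant with vehicle and Ptger4 with IL-1β.

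Ratios between members within a sample put these changes side by side, and 4 were computed, each from values per kilobase. The ratio of Ptgs2 to Ptgs1 was 9.43, 8.96, 8.96 and 9.27 with IL-1β and 29.5, 26.1, 26.9 and 30.8 with vehicle. It was 3.09-fold lower with IL-1β (log2 difference -1.63, SE 0.0588). The ratio of Ptges to Ptgis was 0.568, 0.628, 0.683 and 0.732 against 0.0395, 0.0431, 0.0485 and 0.0264, or 16.9-fold higher with IL-1β (log2 difference 4.08, SE 0.206). In both groups Ptges remained below Ptgis per kilobase. With IL-1β this order rests on the exon lengths used (3931 bases for Ptges, 2567 for Ptgis), since their mean CPM were 20.1 and 20.2.

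The ratio of Ptges, which makes PGE2, to Hpgd, which starts its breakdown, was 8.52, 3.76, 6.01 and 4.65 with IL-1β and 0.180, 0.252, 0.361 and 0.159 with vehicle. It lay above 1 in every IL-1β sample and below 1 in every vehicle sample, a 24.2-fold difference (log2 difference 4.60, SE 0.368). These are mRNA levels of different enzymes, so a ratio of 1 marks no balance of synthesis and breakdown. PGE2, enzyme protein and enzyme activity were not analysed here. The ratio of Ptger4 to Ptger2 was 1.17, 1.52, 1.23 and 1.82 against 0.630, 0.400, 0.553 and 0.521, so that the more abundant Gs-coupled receptor mRNA switched between the groups (2.72-fold, log2 difference 1.44, SE 0.201). For each of the 4 ratios the groups did not overlap, and the exact permutation test, two-sided, gave p = 0.0286 (adjusted p = 0.0286 over the 4), the smallest that 4 against 4 samples allow. Since Ptges lay above and Ptgis and Hpgd below vehicle in all IL-1β samples, the separation of their ratios was fixed beforehand. The other ratios set Ptgs1 and Ptger4, which rose, against genes not called. These p-values therefore restate the calls of the single genes and add no support to them.

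**Figure D4:**
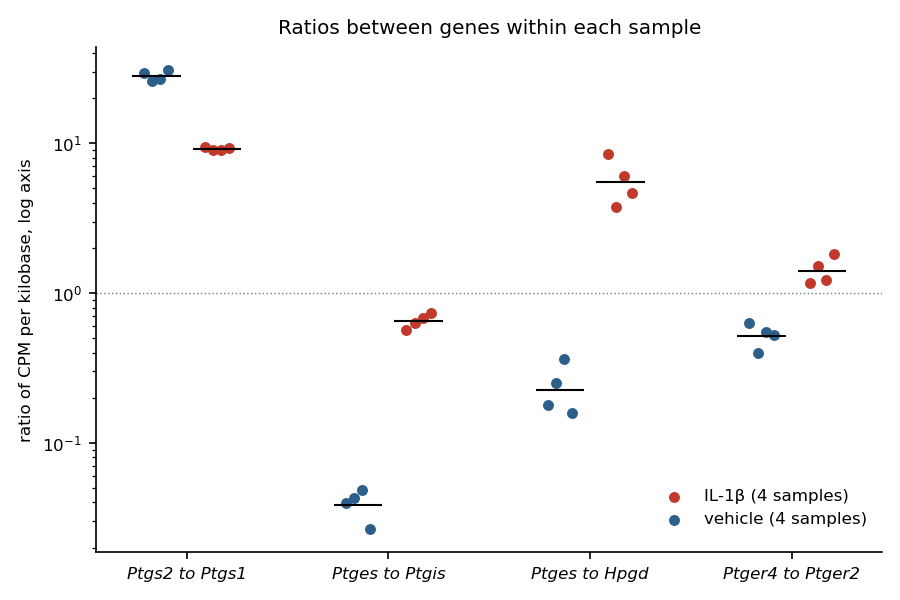
Ratios of CPM per kilobase between pairs of genes in each sample on a log axis, with blue points for vehicle, red points for IL-1β, black bars for the geometric means and a dotted line at 1. The ratio of Ptgs2 to Ptgs1 drops with IL-1β to 8.96 to 9.43, the other 3 ratios are higher with IL-1β, and those of Ptges to Hpgd and Ptger4 to Ptger2 cross 1.

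The other genes of the pathway were taken from 7 lists holding 88 genes, of which 50 were tested, 25 rose and 2 fell, where 20.4% of all genes tested rose and 19.8% fell. The lists were written with results of these samples known, and their counts are no test of a list. From each list, up to 2 called genes with the largest change and no overlap between groups are named.

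Of 20 other phospholipases A2, 6 were tested and 1 rose, where 20.4% of all genes tested rose. It was Pla2g6, a calcium-independent phospholipase (16.2 ± 0.869 CPM against 12.1 ± 0.901 CPM, log2 fold change 0.41, adjusted p = 0.000132). The median log2 fold change of the 6 was 0.07. Of 10 other prostanoid synthases, 7 were tested and 4 rose (20.4% of all genes tested), with a median of 0.26. Ptges2, which encodes microsomal PGE synthase-2, was at 41.0 ± 1.77 CPM in treated and 17.6 ± 1.51 CPM in vehicle samples (log2 fold change 1.22, SE 0.0600, adjusted p = 3.46e-16). Akr1b8, an aldo-keto reductase gene, was at 13.2 ± 0.784 and 4.54 ± 0.448 CPM (log2 fold change 1.53, SE 0.105, adjusted p = 7.12e-13). Ptges3, the gene of cytosolic PGE synthase, named here after its values were seen because it completes the PGE2 synthases, was at 310 ± 3.24 and 309 ± 14.4 CPM (log2 fold change 0.00458, SE 0.0339, adjusted p = 0.933). Thus 2 of the 3 PGE synthase genes rose, Ptges and Ptges2.

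All 5 genes of prostaglandin transport and reduction were tested and 4 rose (20.4% of all genes tested), with a median log2 fold change of 0.21. Only 2 of them were DEG. The other 2, Abcc4 and Zadh2, named after their values were seen, had log2 fold changes of 0.11 and 0.21. Slco2a1, the prostaglandin transporter that takes PGE2 up into cells, was at 74.4 ± 2.84 CPM in treated and 26.7 ± 0.847 CPM in vehicle samples (log2 fold change 1.48, SE 0.0443, adjusted p = 2.49e-21). Ptgr1, which encodes a reductase of prostaglandin metabolites, was at 5.88 ± 1.50 and 2.80 ± 0.451 CPM (log2 fold change 1.04, SE 0.170, adjusted p = 1.10e-05). Ptgr2, another reductase gene, named after its values were seen, was not called (log2 fold change -0.05, adjusted p = 0.717).

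Of the 5 receptors for other prostanoids, 1 was tested. Ptgfr, the receptor for prostaglandin F2α, had 19, 15, 24 and 26 counts with IL-1β and 4, 7, 7 and 5 with vehicle (log2 fold change 2.04, SE 0.317, adjusted p = 5.16e-06). It passed the filter only through the 4 IL-1β samples, at 1.08 to 1.84 CPM against 0.231 to 0.499 CPM with vehicle, so that a gene at this level had to differ to be tested and its call supports nothing further. Of the 14 genes of the leukotriene and lipoxygenase branch, which uses the same arachidonic acid, 2 were tested, Alox12 and Lta4h (named after their values were seen), and neither was called by edgeR (adjusted p = 0.179 and 0.196). Their median log2 fold change was -0.21, and 2 genes of the list had no count in any sample.

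Downstream of EP2 and EP4, 23 of 26 genes of cyclic AMP signalling were tested, of which 10 rose and 2 fell (20.4% and 19.8% of all genes tested), with a median log2 fold change of 0.11. Arrb1, the β-arrestin 1 gene, was at 18.8 ± 1.44 CPM in treated and 4.76 ± 0.444 CPM in vehicle samples (log2 fold change 1.97, SE 0.0988, adjusted p = 5.42e-16). Prkar1b, a regulatory subunit of protein kinase A, was at 20.9 ± 1.30 and 8.78 ± 1.26 CPM (log2 fold change 1.25, SE 0.0906, adjusted p = 2.32e-12). The genes that fell were Adcy9 (log2 fold change -0.80), an adenylyl cyclase, and Prkar2a (-0.18), both named after their values were seen. Of 8 genes that cyclic AMP commonly induces, 6 were tested and 5 rose (20.4% of all genes tested), with a median of 0.69. Nr4a1, an orphan nuclear receptor gene, was at 5.22 ± 0.981 and 2.61 ± 0.298 CPM (log2 fold change 1.00, SE 0.158, adjusted p = 6.66e-06). Nr4a2, of the same family, was at 29.4 ± 1.98 and 15.5 ± 1.07 CPM (log2 fold change 0.92, SE 0.0667, adjusted p = 2.48e-12).

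**Figure D5:**
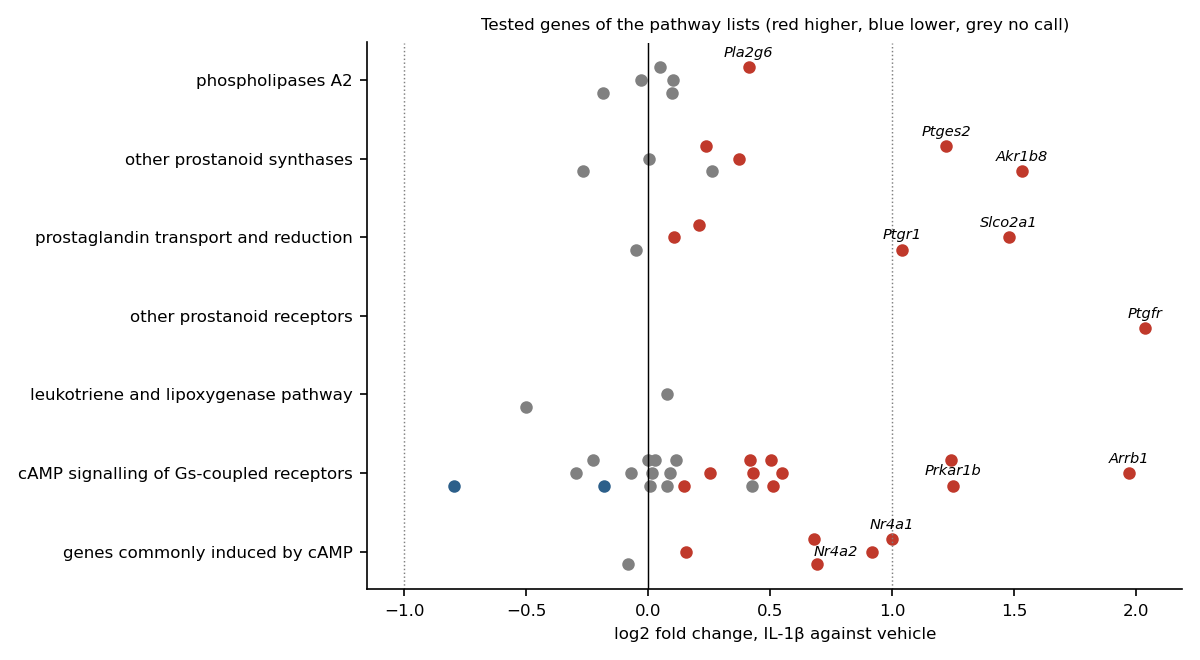
Log2 fold change of IL-1β against vehicle for the 50 tested genes of the 7 pathway lists, 1 point a gene, red for genes that rose, blue for genes that fell and grey for genes not called, with dotted lines at -1 and 1 and the named genes labelled. The 25 red points lie to the right of 0, among them Ptgfr at 2.04, which passed the filter only through the IL-1β samples, and the 2 blue points are in the list of cyclic AMP signalling.

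By the correlation of log2(CPM + 1) over the 8 samples, the genes most like Ptges were Rcan1 (Pearson r = 0.999), Rab11fip5 (r = 0.998) and Npepps (r = 0.998). Those most like Hpgd were Dnajc15 (r = 0.976), Orc2 (r = 0.973) and F8 (r = 0.969). The points fall into the 2 treatment groups and share their libraries, so that 11.0% of all genes tested had an r above 0.9 with Ptges and 1.87% with Hpgd.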

How the data were processed

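RNA-Seq covered 8 samples, 4 per group, assigned by the treatment label. The authors used cutadapt for trimming, STAR for alignment (mm10) and featureCounts for counting, and deposited whole-number counts per gene, not scaled to library size; whether these precede the RUVseq correction of the methods is not given in the sources used here. The table deposited by the authors also lists other values, the exon length of each gene, which were used for values per kilobase.

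Counts were tested with edgeR 4.0.16 (TMM, quasi-likelihood, treatment as the only term; limma 3.58.1, R 4.3.3) over genes with CPM above 1 in at least 4 of 8 samples. Prior degrees of freedom were 20.9. The code was tested on simulated data. Ratios were compared by exact permutation in Python 3.11.15 (numpy 2.4.6, pandas 2.3.3, scipy 1.17.1; matplotlib 3.10.9 for figures). Positions and exons came from GENCODE vM21, whose exon lengths matched the table for all 10 members, and promoters from RefSeq. Alternatives were DESeq2 1.42.0, other scalings, filters, glmTreat, a replicate block, 0.5 counts added in ratios, and each sample left out.

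The members, pathway lists and markers were chosen with earlier results of these data known. Named genes were the members, up to 2 called genes per list with the largest change and no overlap, nearest neighbours of called members (in part not reported here), and the 3 genes most like Ptges and Hpgd. Marker genes and the Ptgs2 promoter were named after their values were seen. The miRNA-Seq, qPCR, in vivo and human data were not analysed here.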

Additional observations from a re-analysis of the deposited data

How the results depend on the processing

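Of 120 values of the 8 tested members under the alternatives, 117 kept their direction and their side of the threshold. In the other 3, Ptgs2 passed the threshold as lower without IL-1β replicate 1 or vehicle replicate 1 (log2 fold change -0.085 and -0.088), and Ptger2 reversed (-0.0041) without vehicle replicate 2, within a leave-one-out range of -0.0041 to 0.20. Leaving out single samples gave 4 higher members throughout, 2 to 3 lower members, 3 DEG higher and 0 to 1 DEG lower, the last being Hpgd. With glmTreat against a log2 fold change of 1, 0 members were DEG lower, and 262 genes were DEG higher and 175 lower in all, against 412 and 339. Without the filter these were 635 and 571, and with CPM above 1 in all 8 samples 266 were DEG higher and 245 lower.

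Over all genes tested, same-numbered samples did not deviate together (mean correlation of same-numbered deviations -0.0226, range -0.0698 to 0.0394). This cannot show whether they shared a mouse or culture. With the replicate block, the members' calls were 4 higher and 2 lower, as without it, and over all genes 2857 higher and 2787 lower. For the ratios, the exact paired permutation test of 4 pairs cannot go below p = 0.125, which each reached at its log2 difference (Ptgs2 to Ptgs1 -1.63, Ptges to Ptgis 4.08, Ptges to Hpgd 4.60, Ptger4 to Ptger2 1.44).

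Scaling moved the median of all genes by under 0.01. Depth kept Ptger1 and Ptger3, at 3 to 11 counts per sample, from being tested.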

Other observations

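A minus-strand gene named for Ptgs2 is annotated on each side of it, and both are given here after their values were seen. Ptgs2os (chromosome 1, 150074873-150099963, minus strand), whose start lies 68 bases from that of Ptgs2 and which runs the opposite way, over part of the Ptgs2 promoter window, had 31, 28, 34 and 34 counts with IL-1β and 33, 19, 30 and 30 with vehicle, and was not called by edgeR (log2 fold change 0.37, adjusted p = 0.177). Ptgs2os2, a lincRNA gene 50816 bases beyond the end of Ptgs2 (150159043-150164948, minus strand), had 15, 19, 7 and 15 counts with IL-1β and 3, 3, 1 and 3 with vehicle. Its ratio of CPM over the summed counts of 56 and 10 was 6.40 (95% exact interval 3.24 to 14.1, counting error only). It exceeded 1 CPM in 3 samples and so was not tested, and a fit with no filter gave a log2 fold change of 2.63 (edgeR, adjusted p = 1.90e-07). Ptgs2 itself, between them, changed by -4.72% and was not called.

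Ptgir, the prostacyclin receptor gene, likewise below the filter, had 13, 4, 10 and 9 counts with IL-1β and 3, 3, 2 and 5 with vehicle, with overlapping groups. Also named after its values were seen, Pde4b in the list of cyclic AMP signalling, a phosphodiesterase that degrades cyclic AMP, rose from 13.3 ± 1.54 to 31.3 ± 2.62 CPM (log2 fold change 1.24, SE 0.0763, adjusted p = 6.19e-14), behind Arrb1 and Prkar1b.

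By Dixon's ratio, 0 of 30 groups of 4 samples held a sample apart from the rest, where chance gives 1.5.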
